A study of Arabidopsis thaliana with 24 samples.

Results

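The genes described here are the chloroplast-encoded ones, taken as every row of the deposited count table whose identifier starts with ATCG, the prefix of the chloroplast genome of Arabidopsis thaliana. Of the 32833 rows of the table, 96 were such rows with enough counts to test, 21 were such rows with too few, and 16 were such rows with no count in any library. Seedlings of the accession Columbia-0 were either pifq, which carries mutations in PIF1, PIF3, PIF4 and PIF5, genes for 4 phytochrome-interacting transcription factors, or wild type (WT). They grew under cycles of 16 h light and 8 h dark at 10 µmol m-2 s-1, or in darkness after a light pulse. Light-grown seedlings were moved after 72 h to plates holding the growth-restraining hormone abscisic acid (ABA), or ethanol as mock, and stayed there 5 days. Dark-grown seedlings were moved after 62 h and stayed 4 days, so light and age cannot be told apart. These times hold unless otherwise stated, per the labels, which give no ABA dose. The 8 groups were pifq light ABA, pifq light mock, WT light ABA, WT light mock, pifq dark ABA, pifq dark mock, WT dark ABA and WT dark mock, with 3 biological replicates each. All seedlings were stratified for 2 days and kept at 22 °C. The labels name seedlings as the tissue, with no organ separated.

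The chloroplast genome encodes part of the photosynthetic complexes, part of the plastid ribosome, the core of a plastid RNA polymerase, ribosomal RNAs and transfer RNAs, while most proteins of the organelle are encoded in the nucleus. A polymerase encoded in the plastid, steered by nuclear-encoded sigma factors, and a phage-type polymerase encoded in the nucleus share the transcription of these genes. Dark-grown seedlings hold etioplasts, which become chloroplasts in light, and PIF factors hold back this change in darkness. The libraries were made from RNA selected with oligo(dT). In chloroplasts a poly(A) tail marks an RNA for decay rather than protecting it, so a count here is an indirect measure of a chloroplast gene's RNA. In bulk samples, fewer plastids or cells and less RNA per plastid cannot be told apart.

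Neither the deposited table nor the reference annotation pairs the ATCG identifiers with gene names. The names used here, for 5 of them, came from notes in the reference annotation on similar nuclear genes, and each note was compared with the chloroplast genome by a protein search. ATCG00660 was noted as ribosomal protein L20, a protein of the plastid ribosome, and the search ended at rpl20. ATCG00670 was noted as the plastid-encoded CLP P, the proteolytic subunit of the Clp protease, and matched clpP. ATCG00530 was noted as a CemA-like protein, a protein of the chloroplast envelope, and matched cemA. ATCG00430 was noted as photosystem II reaction center protein G, on a nuclear gene for a subunit of NADH-ubiquinone oxidoreductase, and the search ended at ndhK, a subunit of the plastid NADH dehydrogenase-like complex. ATCG01310 was noted as ribosomal protein L2 and matched rpl2, which stands at 2 places in the chloroplast genome, so its reads could be shared between copies. The matches were 32.8% to 47.6% identical over 83 to 193 residues. Other rows are given by their counts and ranges, with 4 named by identifier alone.

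Libraries held between 13722850 and 17538529 counts in all, of which 70770 to 131480 fell on chloroplast rows. The 37 chloroplast rows that did not pass the filter on low counts held 798 of 2492676 chloroplast counts, or 0.032%. At the edge of the filter, the tested row with the fewest counts had 148 over the 24 libraries and the untested row with the most had 150. ATCG01310, the rpl2 row, had 121 counts and was not tested. Counts were concentrated: 8 rows held more than all others together, 44 rows held 90%, and the most abundant row alone held 17.6%. As a check on the labels, PIF3 had 1.67 to 3.10 CPM in pifq dark mock, against 55.9 to 71.2 CPM in WT dark mock, and PIF3 and PIF5 stood below WT without overlap in all 4 settings. PIF1 did in none of them and PIF4 not in darkness. In dark mock PIF1 had 84.2 to 98.6 CPM in pifq, against 36.8 to 38.2 CPM in WT.

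Chloroplast rows took 0.749 ± 0.0435% of all counts in pifq light ABA, 0.672 ± 0.0891% in pifq light mock, 0.691 ± 0.0557% in WT light ABA and 0.711 ± 0.0395% in WT light mock (mean ± SD, n = 3 each). In darkness they took 0.680 ± 0.108% in pifq ABA, 0.783 ± 0.0796% in pifq mock, 0.599 ± 0.0358% in WT ABA and 0.470 ± 0.0592% in WT mock. The 3 WT dark mock libraries, at 0.404, 0.516 and 0.492%, were the lowest of the 24, and no library of another group fell among them. The order of the upper groups depended on the scale: with the library size as scaled by trimmed mean of M-values (TMM), pifq light ABA stood at 0.864% and pifq dark mock at 0.701%. No test was made of this sum. Mitochondria-encoded rows took less in light, at 0.0362 to 0.0558% of counts in the 4 light groups and 0.115 to 0.224% in the 4 dark groups. The mean chloroplast share went the other way in WT and in pifq ABA. In pifq mock it too was lower in light than in darkness on this share of all counts. Light and dark libraries overlapped in pifq mock (0.601 to 0.772% and 0.696 to 0.852%) and in pifq ABA (0.699 to 0.780% and 0.590 to 0.800%).

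**Figure D1:**
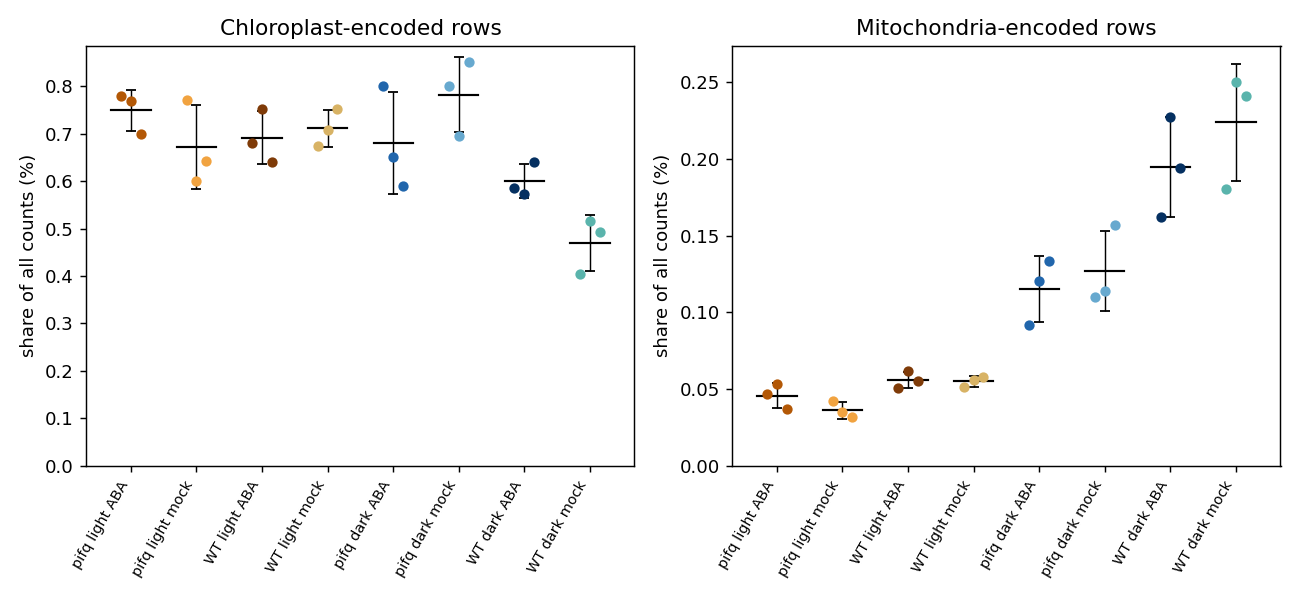
Share of all counts of a library, in percent, that fell on chloroplast-encoded rows (left) and on mitochondria-encoded rows (right), by group; points are libraries, horizontal lines group means and bars 1 SD (n = 3). WT dark mock had the lowest chloroplast share, 0.470%, while all dark groups had a higher mitochondrial share than all light groups.

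Markers of tissue moved with these groups too. The root markers were 13 genes, 8 linked to the endodermis and 5 to root hairs. Their summed level averaged 128 to 230 TMM-scaled CPM (counts scaled to the library size) in the light groups. It averaged 197 and 282 CPM in pifq dark ABA and pifq dark mock, and 391 and 507 CPM in WT dark ABA and WT dark mock. The summed level of 39 nuclear photosynthesis genes averaged 70073 to 85890 CPM in light, 40913 and 34226 CPM in pifq dark ABA and mock, and 10030 and 10976 CPM in WT dark ABA and mock. The members of the root list did not move alike. The endodermis gene CASP1 averaged 8.26 CPM in WT light ABA and 56.6 CPM in WT dark ABA, SCR lay between 63.8 and 80.2 CPM in all 8 groups, and the root hair genes went the other way on ABA plates in WT, PRP3 averaging 29.8 CPM in WT light ABA and 1.64 CPM in WT dark ABA. Of the root markers none was at 0 in a group, the lowest being EXPA18 at 0.0825 CPM in WT dark ABA, and of the photosynthesis genes LHCB1.5 was at 0 in all groups. Their part in the chloroplast counts was not tested.

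Levels below are TMM-scaled CPM, changes are log2 ratios with their standard errors (SE), and a gene was called where edgeR's quasi-likelihood test, fitted to all 20828 tested genes in all 24 libraries, gave a Benjamini-Hochberg adjusted p under 0.05. Chloroplast rows varied more between replicates than other genes, with a median biological coefficient of variation of 0.222, against 0.109 over all tested genes. The pifq dark ABA libraries stood furthest apart: the median chloroplast row deviated from its group mean by 0.38 in replicate 1, -0.07 in replicate 2 and -0.34 in replicate 3 on the log2 scale. Counts of called rows that rest on that group, their medians and the changes of ATCG00430, ATCG00660 and ATCG00520 are given below with and without replicate 1.

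Light was set against darkness first. In WT on mock plates, light raised 31 of the 96 tested rows and lowered 34, beside 32.7% higher and 32.2% lower among all tested genes. The shares were thus near the background, but the changes were spread more widely: the quartiles of the chloroplast rows lay at -1.03 and 0.85, against -0.55 and 0.56 for all genes, around medians of 0.06 and 0.00. The 31 higher rows held 71.7% of all chloroplast counts and the 34 lower rows 16.1%, and the median row had 49 CPM in the higher set and 20.8 CPM in the lower set. Summed over the set, the higher rows reached 6121 ± 218 CPM in WT light mock and 2422 ± 323 CPM in WT dark mock, while the lower rows reached 414 ± 58.2 CPM in WT light mock and 1141 ± 174 CPM in WT dark mock (SD, n = 3 each). These sets were chosen from that comparison, so their sums in it are a description.

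**Figure D2:**
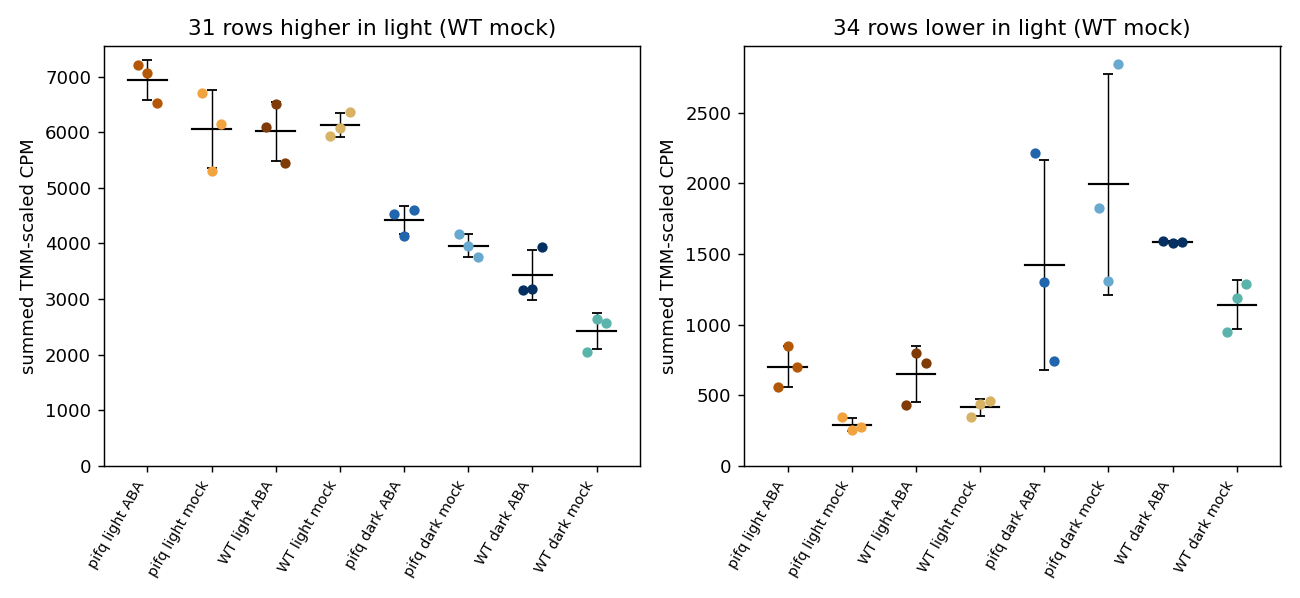
Summed TMM-scaled CPM of the 31 chloroplast rows called higher (left) and the 34 called lower (right) in WT light mock against WT dark mock, by group; points are libraries, lines means and bars 1 SD (n = 3). The ABA libraries were outside the comparison that chose the sets, though they shared its fit. In them the higher rows summed to 6012 CPM in WT light and 3426 CPM in WT dark, and the lower rows to 651 CPM in WT light and 1582 CPM in WT dark.

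ATCG00430, the ndhK match, was among the rows that light raised. It had 271, 264 and 279 CPM in WT light mock, against 69.7, 89.6 and 84.7 CPM in WT dark mock. All light libraries stood above all dark ones, a log2 change of 1.74 ± 0.11 (edgeR adjusted p = 1.21e-11).

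The ribosomal protein row went the other way. ATCG00660, for L20, had 5.84, 6.54 and 7.57 CPM in WT light mock, against 10.5, 13.2 and 13.9 CPM in WT dark mock. It fell by 0.91 on the log2 scale (SE 0.27, edgeR adjusted p = 0.00611), with no overlap. ATCG00670, the Clp protease subunit, had 53.5, 55.7 and 57.9 CPM in WT light mock, against 59.1, 76.4 and 73.7 CPM in WT dark mock. Its change of -0.32 ± 0.14 passed narrowly (edgeR adjusted p = 0.0431) and was no longer called when any 1 of 5 of the 6 libraries was left out, all but WT dark mock replicate 1, with adjusted p between 0.0608 and 0.161. ATCG00530, the CemA-like row, had 19.3, 22.8 and 28.5 CPM in WT light mock, against 28.3, 35.7 and 37.2 CPM in WT dark mock, and its change of -0.52 ± 0.29 was not called (edgeR adjusted p = 0.12).

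At the ends of the range stood rows without a name in the sources. ATCG00220 had 379.5, 367.5 and 317 CPM in WT light mock, against 85.2, 89.4 and 80.0 CPM in WT dark mock, a change of 2.06 ± 0.15 (edgeR adjusted p = 1.15e-10). ATCG00390 had 78.72, 66.96 and 68.92 CPM in WT light mock, against 16.0, 22.0 and 18.6 CPM in WT dark mock, a change of 1.92 ± 0.12 (edgeR adjusted p = 1.14e-11). In both rows every light library stood above every dark library. ATCG00040 had 12.1, 15.4 and 13.9 CPM in WT light mock, against 74.6, 75.8 and 86.4 CPM in WT dark mock, a change of -2.52 ± 0.44 (edgeR adjusted p = 5.58e-05). ATCG00520 had 5.24, 8.13 and 6.73 CPM in WT light mock, against 28.4, 39.0 and 40.8 CPM in WT dark mock, a change of -2.42 ± 0.51 (edgeR adjusted p = 0.000431). The light and dark libraries of these rows did not overlap either. A call and no overlap in this comparison were conditions for naming all of these rows, so both are a description. The most abundant row of all, with 1647, 1929 and 1685 CPM in WT light mock, against 437, 522 and 568 CPM in WT dark mock, changed by 1.78 ± 0.12 (edgeR adjusted p = 2.28e-11).

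**Figure D3:**
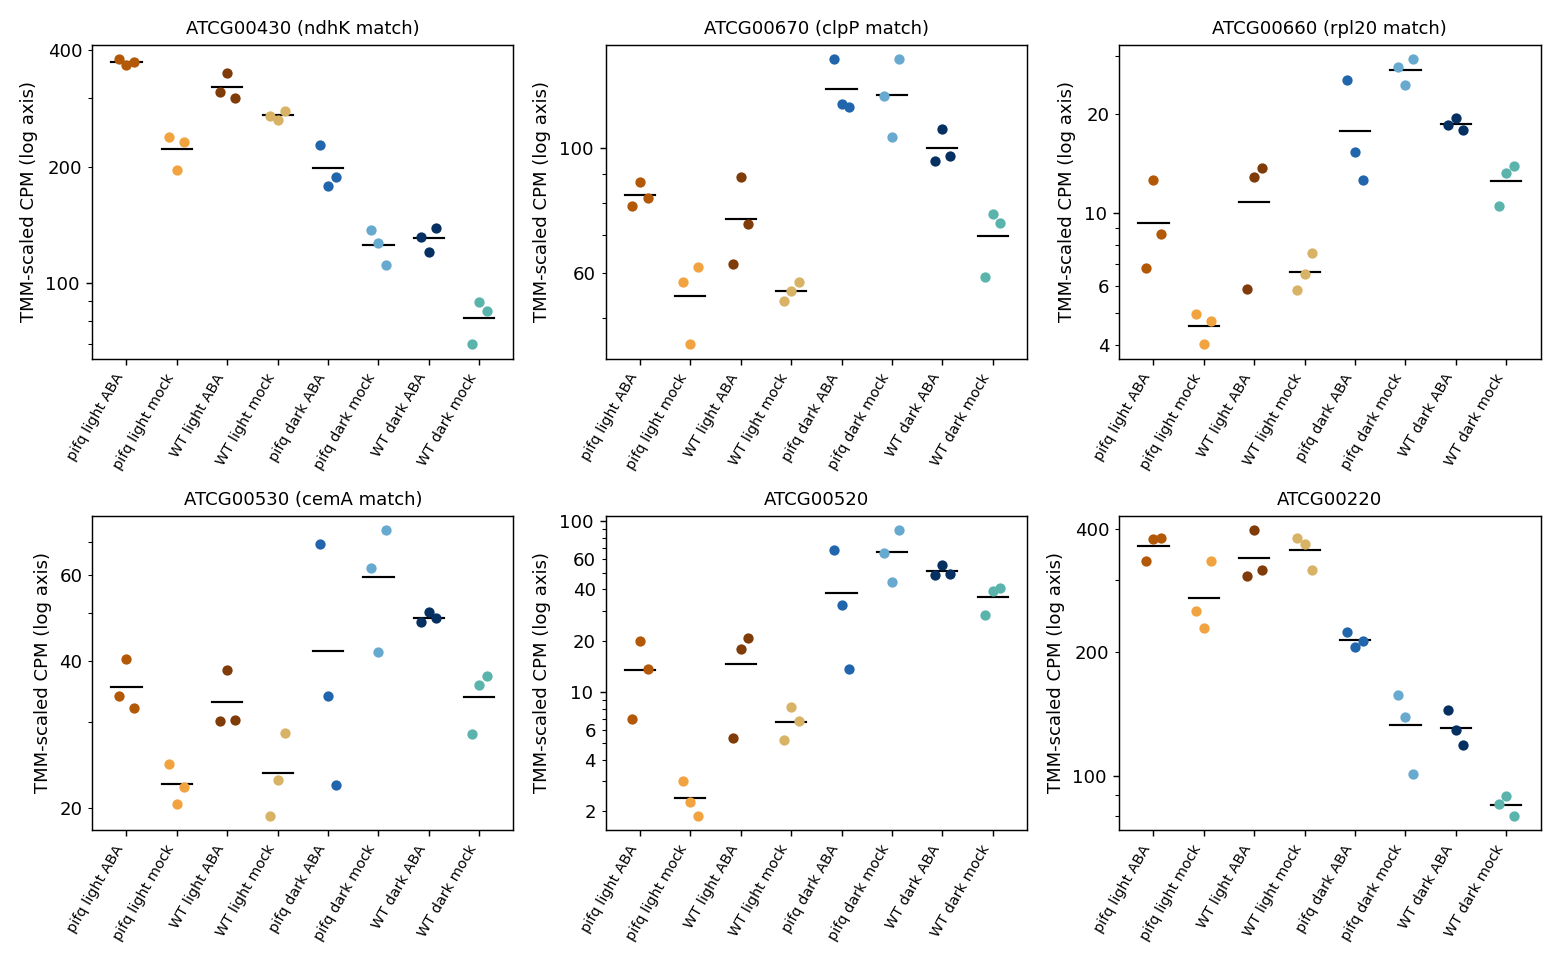
TMM-scaled CPM on log axes for 4 annotated chloroplast rows and for ATCG00520 and ATCG00220, by group; points are libraries and lines group means (n = 3). ATCG00430 and ATCG00220 were higher in every light mock library than in every dark mock library of the same genotype, while ATCG00660 and ATCG00520 were lower. In WT this was a condition for choosing ATCG00220 and ATCG00520.

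The ABA-treated seedlings gave the light comparison in separate libraries. In WT on ABA plates, 33 rows were higher and 30 lower in light, beside 31.5% and 31.1% of all tested genes. Of the 31 rows that light raised on mock plates, 23 were also raised on ABA plates (74.2% of the mock list and 69.7% of the ABA list), and 30 rows were lowered in both (88.2% of the mock list and 100% of the ABA list). No row was called in opposite directions. Over the 96 rows the light changes on ABA and mock plates had a Pearson r of 0.921 and a Spearman rho of 0.919, as a description across rows that are not independent. Without WT light ABA replicate 1, whose median row was 0.18 below its group mean on the log2 scale, 17 rows were lower in place of 30. In pifq on ABA plates 26 rows were higher and 17 lower, beside 25.9% and 30.2% of all genes, and without pifq dark ABA replicate 1 the higher rows numbered 25 and the lower rows 6, without its replicate 3 they were 28, and without pifq light ABA replicate 1 they were 10. With library totals in place of TMM, which moved the median of all genes by -0.22 here, the split was 17 higher and 27 lower, and a fit to the 2 groups alone gave 27 higher and 4 lower. Over all 4 light comparisons, 11 rows rose each time, 17 fell each time, 6 were never called and 7 were called in both directions. Without pifq dark ABA replicate 1, an alternative chosen after the data were seen, these counts were 10, 6, 4 and 8. These patterns and the overlaps between lists were not counted over all tested genes, so none has a background beside it.

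In pifq on mock plates the light response was shifted downward. There, 14 rows were higher in light and 56 were lower, beside 29% and 28.3% of all tested genes, with a median change of -1.07 against 0.00 for all genes. The difference between genotypes was tested as an interaction term, the light change in pifq minus that in WT. It was negative for 93 of the 96 rows and was called for 44, all lower in pifq, beside 11.8% of all genes lower and 6.64% higher. None was called higher, none had an unadjusted p under 0.05 in that direction, and DESeq2 called none higher and 51 lower. The median difference was -1.12, against -0.01 for all genes. The same term is the pifq against WT change in light mock (median -0.30) minus that in dark mock (median 0.83), both given below. Without WT dark mock replicate 1, without pifq dark mock replicate 1 and without pifq light mock replicate 2 the count was 27, 28 and 29.

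The rows kept a similar order. All 14 rows that light raised in pifq were raised in WT as well, and all 34 rows that light lowered in WT were lowered in pifq, while 3 rows were lower in pifq and higher in WT. These overlaps were likewise not counted over all tested genes. The Pearson r of the light changes in pifq and WT, which share no library, was 0.932 and the Spearman rho 0.925 over the 96 rows, as a description. ATCG00430 had 238, 196 and 231 CPM in pifq light mock, against 137, 127 and 112 CPM in pifq dark mock, a change of 0.82 ± 0.11 (edgeR adjusted p = 1.41e-06). It rose in both genotypes, but its interaction term was -0.92 ± 0.15 (edgeR adjusted p = 0.000179). ATCG00660, for L20, had 4.97, 4.01 and 4.73 CPM in pifq light mock, against 27.8, 24.5 and 29.4 CPM in pifq dark mock, a change of -2.57 ± 0.28 (edgeR adjusted p = 1.83e-07). Its interaction term was -1.66 ± 0.39 (edgeR adjusted p = 0.00491), so that the L20 row fell further in pifq than in WT.

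The remaining tested annotated rows and ATCG00520 were compared between genotypes in the same way. ATCG00670, for the Clp subunit, fell by 1.18 on the log2 scale in pifq (SE 0.14), with an interaction term of -0.86 ± 0.19 (edgeR adjusted p = 0.00325). ATCG00530 fell by 1.41 in pifq (SE 0.29, edgeR adjusted p = 0.000377), but its interaction term of -0.89 ± 0.40 was not called (edgeR adjusted p = 0.141). ATCG00520 had 3.02, 2.26 and 1.89 CPM in pifq light mock, against 65.1, 43.9 and 88.8 CPM in pifq dark mock, a 27.3-fold lower level in light and the lowest of all light changes (-4.77 ± 0.59, edgeR adjusted p = 1.6e-06). Its interaction term of -2.34 ± 0.79 passed narrowly (edgeR adjusted p = 0.0448) and was lost in 11 of the 12 fits that left out 1 library of the 4 groups, all but the one without pifq dark mock replicate 2.

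**Figure D4:**
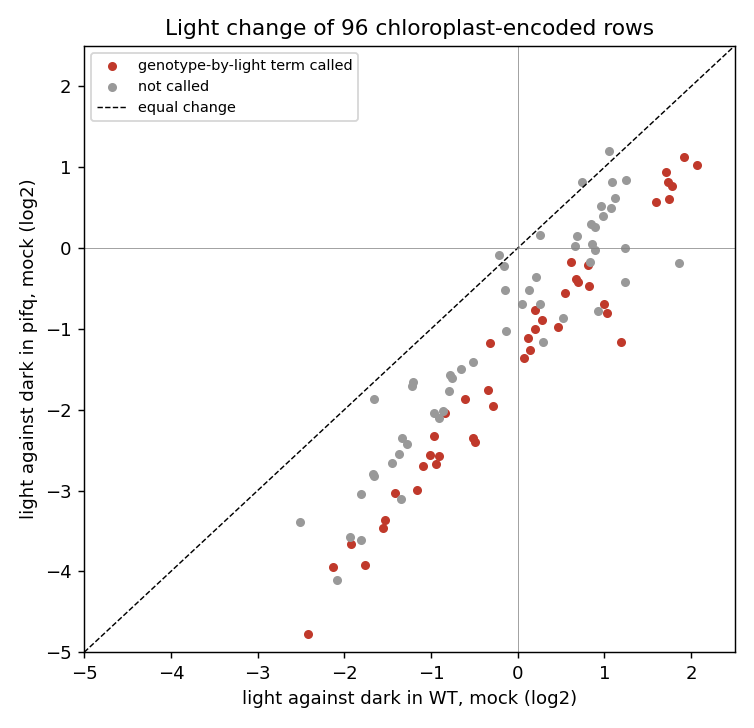
Light change (log2 of light over darkness, mock plates) of the 96 tested chloroplast rows in pifq (vertical axis) against WT (horizontal axis); red points are rows whose genotype-by-light term was called, and the dashed line marks equal change. Of the points, 93 lie below the line, and 44 are called.

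Genotype was then compared within each condition. The 2 mock comparisons use the same libraries as the genotype by light term, so they restate its parts and are not separate results. In dark mock seedlings, 61 rows were higher in pifq than in WT and none lower, beside 23.5% higher and 20.9% lower among all tested genes. The median change was 0.83, against 0.00 for all genes, and 93 of 96 rows were positive. The rows moved together, with quartiles at 0.68 and 0.96, a range of 0.29 compared with 1.88 for light in WT. No row had an unadjusted p under 0.05 for a lower level, and DESeq2 called 56 higher and none lower. Without WT dark mock replicate 1, in which the median row was 0.22 below its group mean on the log2 scale, 40 rows were higher and 1 was lower.

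ATCG00660, for L20, had 27.8, 24.5 and 29.4 CPM in pifq dark mock, against 10.5, 13.2 and 13.9 CPM in WT dark mock, a change of 1.12 ± 0.25 (edgeR adjusted p = 0.00124). ATCG00670, for the Clp subunit, had 123.8, 104.5 and 143.9 CPM in pifq dark mock, against 59.1, 76.4 and 73.7 CPM in WT dark mock (change 0.83 ± 0.14, edgeR adjusted p = 4.4e-05). ATCG00430 had 137, 127 and 112 CPM in pifq dark mock, against 69.7, 89.6 and 84.7 CPM in WT dark mock (change 0.62 ± 0.11, edgeR adjusted p = 8.46e-05). The pifq libraries lay above the WT libraries in each of these rows. ATCG00530 rose by 0.81 ± 0.28 (edgeR adjusted p = 0.024), a call lost without WT dark mock replicate 1, pifq dark mock replicate 1 or pifq dark mock replicate 3 (adjusted p of 0.0931, 0.0613 and 0.105). The changes of ATCG00520, 0.87 ± 0.45, and ATCG00040, 0.25 ± 0.39, were not called (edgeR adjusted p = 0.123 and 0.633), and ATCG00520 was called in a fit to the 2 groups alone, without the replicate number as a block (adjusted p = 0.033) and with it (adjusted p = 0.0214), but not with the block in all libraries (adjusted p = 0.14).

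The other genotype comparisons held few calls. In dark ABA seedlings 15 rows were higher in pifq and none lower, beside 22.2% and 17.5% of all genes, with a median of 0.03, against 0.05 for all genes. DESeq2 called 13 higher and none lower, and 1 row had an unadjusted p under 0.05 for a lower level. Without pifq dark ABA replicate 1, 11 rows were higher and 16 lower, with a median of -0.17, and without WT dark ABA replicate 1 or 2, 8 rows were higher. ATCG00430 had 228, 179 and 188 CPM in pifq dark ABA, against 132, 121 and 139 CPM in WT dark ABA, a change of 0.60 ± 0.11 (edgeR adjusted p = 0.000141), and of 0.49 without pifq dark ABA replicate 1 (adjusted p = 0.00155). It was higher in pifq in both dark comparisons.

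In light mock seedlings 1 row was higher in pifq and none lower, beside 5.64% and 4.96% of all genes, although 71 of 96 changes were negative with a median of -0.30. Of these, 12 had an unadjusted p under 0.05, DESeq2 called 5 lower, and a fit to the 2 groups alone called 11 lower and none higher. The 1 row was not called without WT light mock replicate 1 or 2 or without any 1 pifq light mock replicate, and without pifq light mock replicate 3 1 row was lower. In light ABA seedlings no row was called in either direction by edgeR or by DESeq2, beside 0.586% and 0.696% of all genes, and 5 rows had an unadjusted p under 0.05, all of them higher in pifq. With the replicate numbers as a block in those 6 libraries, where same-numbered libraries deviated together, 23 rows were higher, ATCG00430 among them at 0.23 (adjusted p = 0.00385), against 1 row in the same libraries without the block. The shares of all genes called in these fits were not taken, so neither count has a background beside it.

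**Figure D5:**
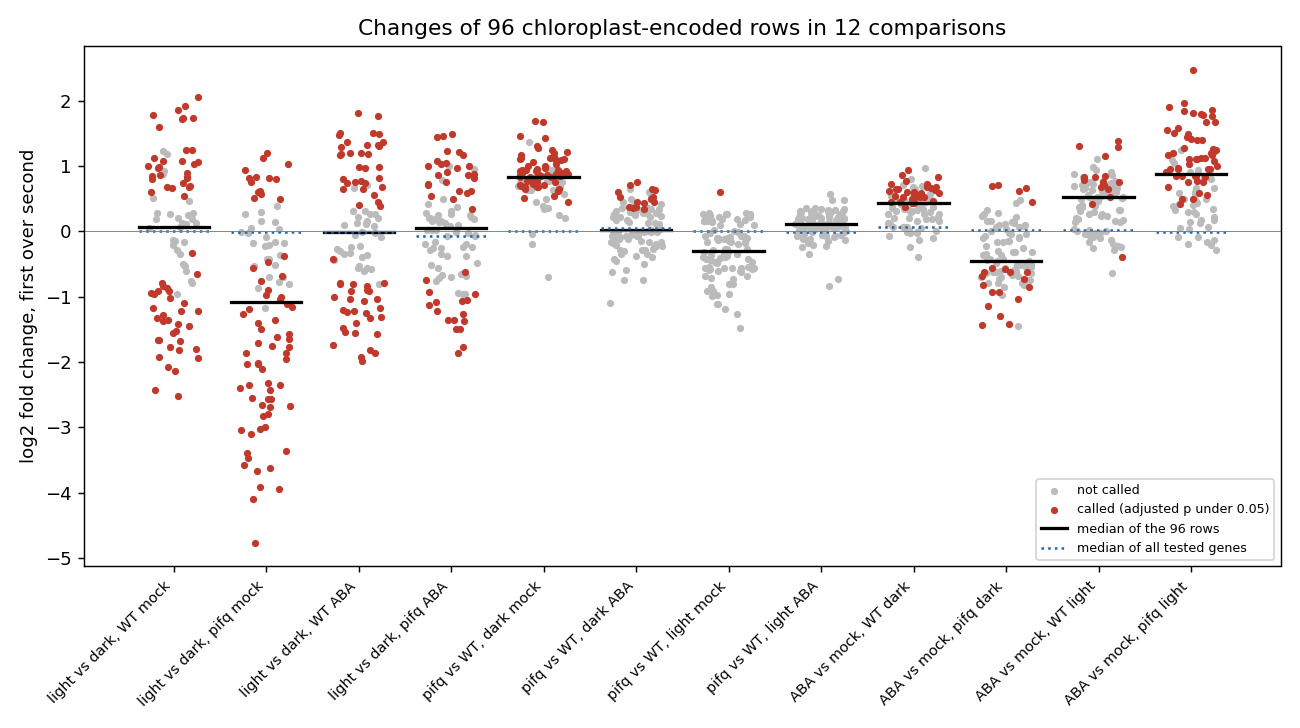
Log2 changes of the 96 tested chloroplast rows in 12 comparisons, the first-named group over the second; red points were called, black lines are the medians of the 96 rows and dotted blue lines the medians of all tested genes. The rows split in both directions with light, and lay above the all-gene median together in pifq against WT in dark mock (median 0.83) and in ABA against mock in pifq light (median 0.88).

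ABA was set against mock in each genotype and light. In pifq in light, 57 rows were higher with ABA and none lower, beside 23.7% and 23% of all tested genes, with a median of 0.88, against -0.01 for all genes. No row had an unadjusted p under 0.05 for a lower level, and DESeq2 called 63 higher and none lower. ATCG00520 had 6.98, 19.9 and 13.6 CPM in pifq light ABA, against 3.02, 2.26 and 1.89 CPM in pifq light mock, a change of 2.48 ± 0.62 (edgeR adjusted p = 0.00285), the highest of the 96 rows. ATCG00430 had 379, 367 and 373 CPM in pifq light ABA, against 238, 196 and 231 CPM in pifq light mock, a change of 0.75 ± 0.11 (edgeR adjusted p = 6.82e-06). In both rows the ABA libraries lay above all mock libraries. ATCG00670, for the Clp subunit, rose by 0.59 ± 0.14 (edgeR adjusted p = 0.00132), and ATCG00660, for L20, by 1.03 ± 0.29 (edgeR adjusted p = 0.00697), a call lost without pifq light ABA replicate 2 (adjusted p = 0.0612).

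In WT in light, 15 rows were higher with ABA and 1 was lower, beside 21% and 19% of all genes, with a median of 0.53, against 0.02 for all genes. The count of higher rows was 26 without WT light ABA replicate 1, 7 without WT light ABA replicate 2 and 9 without WT light mock replicate 2. With library totals the split was 8 higher and 3 lower. Without WT light ABA replicate 1, 2 rows were lower, and none was without WT light ABA replicate 2 or 3 or without WT light mock replicate 1 or 3. ATCG00670 had 62.4, 88.7 and 73.3 CPM in WT light ABA, against 53.5, 55.7 and 57.9 CPM in WT light mock. Its change of 0.43 ± 0.14 was called (edgeR adjusted p = 0.017), though not without WT light ABA replicate 2 (adjusted p = 0.128) or WT light mock replicate 1 (adjusted p = 0.0564). The difference between the ABA changes of pifq and WT in light, a test added after the data were seen, gave no called row in either direction by edgeR or DESeq2, beside 0.0864% and 0.13% of all genes, with 6 rows at an unadjusted p under 0.05, all higher in pifq.

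In WT in darkness, 30 rows were higher with ABA and none lower, beside 22.8% and 17.5% of all genes, with a median of 0.44, against 0.07 for all genes. No row had an unadjusted p under 0.05 for a lower level, and DESeq2 called 27 higher and none lower. The count was 12 without WT dark mock replicate 1 and 14 with library totals in place of TMM. ATCG00430 had 132, 121 and 139 CPM in WT dark ABA, against 69.7, 89.6 and 84.7 CPM in WT dark mock (change 0.68 ± 0.11, edgeR adjusted p = 2.83e-05). This row was higher in every ABA library than in every mock library, and the Clp row ATCG00670 was too, with a change of 0.52 ± 0.14 (edgeR adjusted p = 0.00389). The L20 row ATCG00660 had a change of 0.57 ± 0.25 that was not called (edgeR adjusted p = 0.0785).

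In pifq in darkness, 5 rows were higher with ABA and 16 lower, beside 26% and 22.7% of all genes, with a median of -0.45, against 0.03 for all genes. With library totals the split was 4 higher and 28 lower. The number of lower rows rested on single libraries: it was 41 without pifq dark ABA replicate 1, with 4 rows higher and a median of -0.69, 8 and 9 without its replicates 2 and 3, and 10 and 7 without pifq dark mock replicates 1 and 3. ATCG00040 showed the spread, with 86.6, 38.3 and 18.5 CPM in pifq dark ABA, against 86.2, 60.4 and 135 CPM in pifq dark mock. The groups overlapped, and its change of -0.97 ± 0.40 was not called (edgeR adjusted p = 0.0526), but without pifq dark ABA replicate 1 it was -1.72 (adjusted p = 0.0014) and without pifq dark mock replicate 2 -1.21 (adjusted p = 0.0311). ATCG00430 had 228, 179 and 188 CPM in pifq dark ABA, against 137, 127 and 112 CPM in pifq dark mock, and rose by 0.66 ± 0.11 (edgeR adjusted p = 3.13e-05), or by 0.55 without pifq dark ABA replicate 1 (adjusted p = 0.000397). ATCG00520 was called lower without that library (-1.51, adjusted p = 0.0133) and not with it. The L20 row ATCG00660 had 25.3, 15.3 and 12.6 CPM in pifq dark ABA, against 27.8, 24.5 and 29.4 CPM in pifq dark mock. Its change of -0.62 ± 0.25 passed narrowly (edgeR adjusted p = 0.0458) and was lost without any 1 of 5 of the 6 libraries, all but pifq dark ABA replicate 1, with adjusted p between 0.0543 and 0.2, while without that replicate it was -0.96 (adjusted p = 0.0039).

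The differences between these ABA changes were tested directly. The term in darkness is also the pifq against WT change in dark ABA minus that in dark mock, so it holds the dark mock difference given above. In darkness the ABA change in pifq minus that in WT was negative for 92 of 96 rows, with a median of -0.82, against -0.01 for all genes, and 11 rows were called lower and none higher, beside 5.69% and 5.72% of all genes. No row had an unadjusted p under 0.05 for a higher value, and DESeq2 called 13 lower and none higher. The count was 38 without pifq dark ABA replicate 1, where the median was -0.99, 4 without its replicate 2 or 3, 3 without WT dark mock replicate 1, 6 and 7 without WT dark ABA replicates 2 and 3, and 5 without pifq dark mock replicate 1. The L20 row ATCG00660 had a term of -1.19 ± 0.35 (edgeR adjusted p = 0.0338), and of -1.53 without pifq dark ABA replicate 1 (adjusted p = 0.00516). Without that library ATCG00520 was also called lower (-2.01, adjusted p = 0.039). Of the 12 fits that left out 1 library, the L20 call held in 3, those without WT dark mock replicate 3, pifq dark ABA replicate 1 or pifq dark mock replicate 2.

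In pifq, the ABA change in light minus that in darkness, added after the data were seen, was called higher for 51 rows and lower for 1, beside 9.02% and 9.65% of all genes, with a median of 1.29, against -0.05 for all genes. Without pifq dark ABA replicate 1 the higher rows were 60 and the median 1.56, and a fit to the 4 groups alone gave 34. The 1 lower row was 2 rows without pifq light ABA replicate 1 and none without pifq dark ABA replicate 3, pifq dark mock replicate 1 or 2, pifq light ABA replicate 2 or 3, or any 1 pifq light mock replicate. The L20 row ATCG00660 had a term of 1.65 ± 0.39 (edgeR adjusted p = 0.00561) and ATCG00520 one of 3.27 ± 0.77 (edgeR adjusted p = 0.00634). Without pifq dark ABA replicate 1 they were 1.99 (adjusted p = 9e-04) and 3.99 (adjusted p = 0.0012). In WT the same term was called lower for 7 rows and higher for none, beside 6.02% and 5.89% of all genes. There, 3 rows had an unadjusted p under 0.05 for a higher value, and DESeq2 called none higher and 8 lower. The count of 7 was 2 without WT dark mock replicate 1 or WT light ABA replicate 3, 3 without WT dark ABA replicate 3 or WT light mock replicate 1, and 4 without WT light mock replicate 3, and 1 row was higher without WT light ABA replicate 1.

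Read across all 8 groups, the rows' extremes fell into a few of them. The group with the highest mean was pifq dark mock for 48 of the 96 rows and pifq light ABA for 28. The group with the lowest mean was pifq light mock for 47 rows and WT dark mock for 38. Without pifq dark ABA replicate 1, likewise chosen after the data were seen, these 4 counts were 50, 28, 46 and 38. The same counts over all tested genes were not taken, so no background stands beside them. The 34 rows lowered by light in WT summed to 291 ± 47.2 CPM in pifq light mock and 1993 ± 781 CPM in pifq dark mock (SD, n = 3 each), the lowest and highest of the 8 groups. ATCG00430 followed another order, with 372.9 ± 6.35 CPM in pifq light ABA at the top and 81.3 ± 10.4 CPM in WT dark mock at the bottom. Between them, the differences of WT light ABA (320 ± 25.2 CPM) from WT light mock (271 ± 7.41 CPM) and of pifq light mock (222 ± 22.8 CPM) from WT light mock did not pass the test (SD, n = 3 each).

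The nuclear genes that serve the plastid genome were described beside these rows, from lists of 20 plastid transcription genes and 6 plastid RNA turnover genes. In WT on mock plates, light raised 19 of the 20 transcription genes and lowered none, with a median of 1.16, and raised 4 of the 6 turnover genes and lowered none, beside 32.7% higher and 32.2% lower among all tested genes. SIG2, a sigma factor, had 168 ± 9.27 CPM in WT light mock and 44.2 ± 3.37 CPM in WT dark mock, a change of 1.92 ± 0.11 (edgeR adjusted p = 1.8e-12). CSP41B, a chloroplast RNA-binding protein, had 692 ± 86.4 CPM in WT light mock and 45.8 ± 9.34 CPM in WT dark mock, a change of 3.92 ± 0.19 (edgeR adjusted p = 1.7e-13). These genes thus rose nearly all together where the chloroplast rows split in both directions. In pifq on mock plates light again raised 19 of the 20, with a median of 0.70, and 4 of the 6, and lowered none of either list, beside 29% higher and 28.3% lower among all tested genes and a chloroplast median of -1.07.

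In dark mock seedlings the nuclear lists and the chloroplast rows rose together in pifq. Of the transcription genes 19 of 20 were higher in pifq and none lower (median 0.92), as were all 6 turnover genes (median 1.08) and 37 of the 38 tested nuclear photosynthesis genes (median 1.86), beside 23.5% higher and 20.9% lower among all tested genes. PAP1, a protein bound to the plastid-encoded polymerase, had 68.9 ± 3.69 CPM in pifq dark mock and 37.1 ± 1.02 CPM in WT dark mock, a change of 0.89 ± 0.08 (edgeR adjusted p = 3.15e-08). PNP, the polynucleotide phosphorylase that degrades tailed plastid RNA, had 79.9 ± 4.11 CPM in pifq dark mock and 40.7 ± 4.62 CPM in WT dark mock, a change of 0.97 ± 0.11 (edgeR adjusted p = 2.91e-07). With ABA in pifq in light, where 57 chloroplast rows rose, 2 of the 20 transcription genes were higher and 5 lower, 1 of the 6 turnover genes was lower and none higher, and 3 of the 38 photosynthesis genes were higher and none lower, beside 23.7% higher and 23% lower among all tested genes. The share of transcription genes that were lower was thus near that of all genes. PNP had 86.0 ± 4.01 CPM in pifq light ABA and 113 ± 4.95 CPM in pifq light mock, a change of -0.39 ± 0.10 (edgeR adjusted p = 0.00386).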

How the data were processed

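Polyadenylated RNA of seedlings was measured in 24 libraries. Per the labels' protocols, stranded libraries gave paired reads of 100 bases. The authors deposited raw read counts per gene, whole numbers with no normalization. The submitters' processing notes name TAIR10 as genome and STAR, SAMtools, FastQC and DESeq2 as tools. How reads were counted, with which strand setting and how repeated genes were treated is not stated there. The inverted repeat covers 34% of the reference chloroplast sequence, so rows of genes in it may share reads. The ATCG identifiers were not paired with names, so functional classes, the most abundant rows by name and the most alike rows, which the rule for named genes asked for, were not used. Named instead were 5 annotated rows (1 more is not reported here) and the 2 highest and 2 lowest light changes in WT mock among called rows with no overlap and a mean of at least 1 CPM. Names of nuclear genes came from the reference annotation of TAIR10.1, which differs in build, so no coordinates or sequences are given.

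With R 4.3.3 and edgeR 4.0.16, filterByExpr kept 20828 genes. TMM scaling and a robust quasi-likelihood fit followed, where each of the 8 groups had its own coefficient (16 residual degrees of freedom). The SE is the size of a log2 change over the square root of its F. Adjusted p is by Benjamini-Hochberg within a comparison. There were 17 comparisons, 2 of them added after the data were seen. Protein searches set each nuclear protein against the translated chloroplast genes by blastp. The members and lists were chosen with earlier results of these data known. Replicates are biological per the labels, and none was a repeat of another, as all pairs differed beyond counting error. Labels number replicates 1 to 3 in each group without saying that a number marks a batch. Deviations of same-numbered libraries correlated above 0.1 in every pair for only 2 comparisons, both of pifq with WT. These were dark mock (0.134, 0.146 and 0.321) and light ABA (0.393, 0.513 and 0.338). The main tests carried no replicate term, so these 2 were also tested unpaired there, and the replicate block was run as an alternative. Alternatives were RLE factors, library totals, scaling by nuclear genes, no filter, the compared groups alone, a replicate block, each library left out and DESeq2 1.42.0. The steps were tested on simulated data.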

Additional observations from a re-analysis of the deposited data

Results flagged for a closer look

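Several changes differed between conditions by a test of the difference itself, and their values are gathered here. Terms that use the same mock libraries are not independent of each other. Groups of 3 libraries were too small for a test of single outlying samples.

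The light change on mock plates was lower in pifq than in WT for 44 chloroplast rows (45.8% of those tested), beside 11.8% of all tested genes. Among them were ATCG00430 (-0.92), ATCG00660 for L20 (-1.66), ATCG00670 for the Clp subunit (-0.86), ATCG00520 (-2.34), ATCG00390 (-0.79), ATCG00220 (-1.03) and the most abundant row (-1.02), all as differences of log2 changes. The term subtracts the WT mock light change, by which ATCG00390, ATCG00220 and ATCG00520 were chosen, so their values are a description. Of 12 fits that left out 1 library, ATCG00520 lost its call in 11.

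In WT the ABA change was lower in light than in darkness for 7 rows (7.29% of those tested), near the 6.02% of all tested genes. These included ATCG00390 (-0.55), ATCG00220 (-0.69) and the most abundant row (-0.81). The term subtracts the WT mock light change, by which ATCG00390 and ATCG00220 were chosen as highest, so their values are a description. Of 12 fits that left out 1 library, ATCG00390 and ATCG00220 lost their calls in 7 each.

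In darkness the ABA change was lower in pifq than in WT for 11 rows (11.5% of those tested), beside 5.69% of all tested genes. ATCG00660 (-1.19) was among them, and lost its call in 9 of 12 fits that left out 1 library.

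In pifq the ABA change was higher in light than in darkness for 51 rows and lower for 1, beside 9.02% and 9.65% of all tested genes. ATCG00530 (1.17), ATCG00660 (1.65), ATCG00670 (0.55), ATCG00040 (2.02) and ATCG00520 (3.27) were among the 51. Of 12 fits that left out 1 library, ATCG00530 lost its call in 10, ATCG00670 in 9 and ATCG00040 in 5.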

How the results depend on the processing

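Of the counts of rows and the shares, 468 recomputed values stayed within 1.5 times or 1 SD and 78 moved. Changes of single rows were recomputed only for the tested annotated rows, the rows named by identifier alone and the most abundant row. Of these, 2111 kept their call or lack of a call, 115 lost a call and 51 gained one. No such change that was called in the main fit or in the alternative reversed its sign. Uncalled changes could do so: ATCG00530 for light in pifq ABA was at -0.24, and at 0.33 without pifq dark ABA replicate 1. With RLE factors, nuclear scaling or the compared groups alone, the lower rows in the ABA by light term of pifq were 0. Library totals moved the median of all genes by up to -0.22 and gave 17 higher and 27 lower rows for light in pifq ABA, 0 higher for pifq in light mock, 14 higher for ABA in WT dark, 28 lower for ABA in pifq dark, 8 higher and 3 lower for ABA in WT light and 1 lower for ABA in pifq light. Without a filter no row (0) was higher for pifq in light mock. The compared groups alone gave 4 lower for light in pifq ABA, 7 higher for pifq in dark ABA, 0 higher and 11 lower for pifq in light mock, 1 higher for pifq in light ABA and 2 lower for ABA in WT light. DESeq2 gave 5 lower for pifq in light mock and 2 lower for ABA in WT light. On TMM library sizes the share was 0.701% in pifq dark mock, 0.864% in pifq light ABA and 0.761% in WT light ABA. The cause was not tested. With a replicate block in all libraries every count stayed within 1.5 times (37 in place of 44 for the genotype by light term). In the compared libraries alone the block gave 78 for pifq in dark mock (68 without it) and 23 higher for pifq in light ABA (1 without it), an alternative chosen after seeing the data. The shares of all genes called in those fits were not taken. Leaving out 1 library gave 17 to 32 lower rows for light in WT ABA and 6 to 28 lower for light in pifq ABA. For pifq it gave 40 to 68 higher and 0 to 1 lower in dark mock, 8 to 15 higher and 0 to 16 lower in dark ABA, and 0 to 1 higher and 0 to 1 lower in light mock. For ABA it gave 12 to 29 higher in WT dark, 7 to 41 lower in pifq dark, and 7 to 26 higher and 0 to 2 lower in WT light. The genotype by light term ran from 27 to 46 lower. The ABA by light term ran from 0 to 1 higher and 2 to 9 lower in WT, and 0 to 2 lower in pifq. The ABA by genotype term in darkness ran from 3 to 38 lower. Summing rows of the inverted repeat, and leaving out ribosomal and transfer RNA rows, were not run, since the rows are not annotated. Rows with few counts limit what could be called, and 37 chloroplast rows could not be tested.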
